A study of Homo sapiens with 10 samples.

Results

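The autophagy genes described here are 37 genes that encode the core machinery of autophagosome formation and the receptors that bring cargo to it, picked by gene symbol from the 27884 genes with values in PANC-1 cells. The list was given by name, and the members, roles and other lists were chosen with earlier results of these data known. PANC-1 is an established human line of pancreatic ductal adenocarcinoma. RNA was sequenced from 5 shPAR1 libraries, numbered 1 to 5, and 5 shCtrl libraries, numbered 6 to 10. In shPAR1 cells F2R, the gene of protease-activated receptor 1 (PAR1), was silenced with a hairpin RNA from a lentivirus, shCtrl cells received a control hairpin, and both were selected with puromycin and grown as attached cultures in medium with serum. Each arm used a single hairpin clone, so the loss of F2R and any other effect of that hairpin cannot be told apart. The sources do not say whether the libraries of an arm came from separate cultures, and if they did not, the p-values cover technical spread alone.

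Autophagy encloses cytoplasm in a double membrane that fuses with the lysosome. The ULK1 kinase complex starts the process, a class III phosphatidylinositol 3-kinase complex marks the site, and ATG9A and the ATG2 proteins supply lipid. A pair of linked conjugation reactions, which share ATG7 as activating enzyme, then attaches ATG8 proteins such as LC3B to the membrane, and receptors such as SQSTM1 bind both cargo and ATG8. Pancreatic ductal adenocarcinoma is known for a high autophagic flux, which messenger RNA levels do not measure.

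Levels are given as log2(normalized count + 1), where a normalized count is the count after division by the size factor of its library. A difference is the shPAR1 mean minus the shCtrl mean of these levels, and for genes with few reads it is smaller than the log2 ratio of the counts. Counts per library ranged from 15335264 to 25369056. F2R was lower in shPAR1 cells (-1.56, standard error 0.0402, adjusted p = 7.69e-15, limma). The reference genes ACTB (-0.16, standard error 0.0488, adjusted p = 0.0154) and GAPDH (-0.20, standard error 0.0570, adjusted p = 0.00899) were also lower, by a step close in size to several of the differences described here. The mitochondrial genome gave 7.37% to 9.08% of counts in the shPAR1 arm and 5.71% to 7.07% in the shCtrl arm, and size factors computed without its genes gave the same counts of members higher and lower. All 5 epithelial markers had reads, with normalized counts that summed to between 35821 and 41971 in shPAR1 libraries and between 53536 and 56862 in shCtrl libraries. Of these, KRT8 (-0.34, standard error 0.0483, adjusted p = 1.65e-05), KRT18 (-0.35, standard error 0.0476, adjusted p = 1.18e-05), KRT19 (-0.82, standard error 0.0475, adjusted p = 2.1e-10) and EPCAM (-0.78, standard error 0.0645, adjusted p = 2.29e-08) were lower and CDH1 was higher (1.04, standard error 0.122, adjusted p = 1.95e-06). The 4 leukocyte, 3 endothelial and 3 acinar markers with values had at most 26, 6 and 7 reads in a library, and 1, 2 and 3 of them were at 0 in some library. The 3 fibroblast markers with values (of 6 in the list) summed to between 6127 and 7290 in shPAR1 libraries and between 4728 and 5478 in shCtrl libraries, with COL3A1 at 11.50 ± 0.065 (SD, n = 5) against 6.22 ± 0.28 (SD, n = 5). PDGFRA was also higher (0.94, standard error 0.0665, adjusted p = 3.01e-09), whereas COL1A1 was lower (-0.43, standard error 0.0597, adjusted p = 1.31e-05). The part of the marker genes and of the mitochondrial share in the differences below was not tested.

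All 37 members reached a normalized count of 10 in 5 or more libraries, the filter for testing, and differences were called with limma at a Benjamini-Hochberg adjusted p under 0.05 over 17518 genes. GABARAP passed this filter through its shPAR1 libraries, with a mean normalized count of 9.93 in shCtrl cells, and it is counted among the members higher. In shPAR1 cells 12 of the 37 members were higher (32.4%) and 4 were lower (10.8%), while 21 did not pass. Among all genes tested 19.0% were higher and 21.9% lower. As the members were chosen with earlier results known, setting these shares side by side is a description and no test. The groups did not overlap for 6 members that were higher and 3 that were lower, against 13.3% and 15.9% of all genes tested. Differences were small, with a median of 0.0035 and a median size of 0.13 over the members beside -0.0046 and 0.20 over all genes tested, and the extremes were -0.71 for ATG7 and 0.83 for CALCOCO2. The number higher fell to 7 without shPAR1 library 2. With TMM scaling the counts were 10 higher and 7 lower, and with voom weights 14 and 7. In bulk RNA a lower value can mean fewer cells that express a gene or less of its RNA per cell, and these cannot be told apart.

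**Figure D1:**
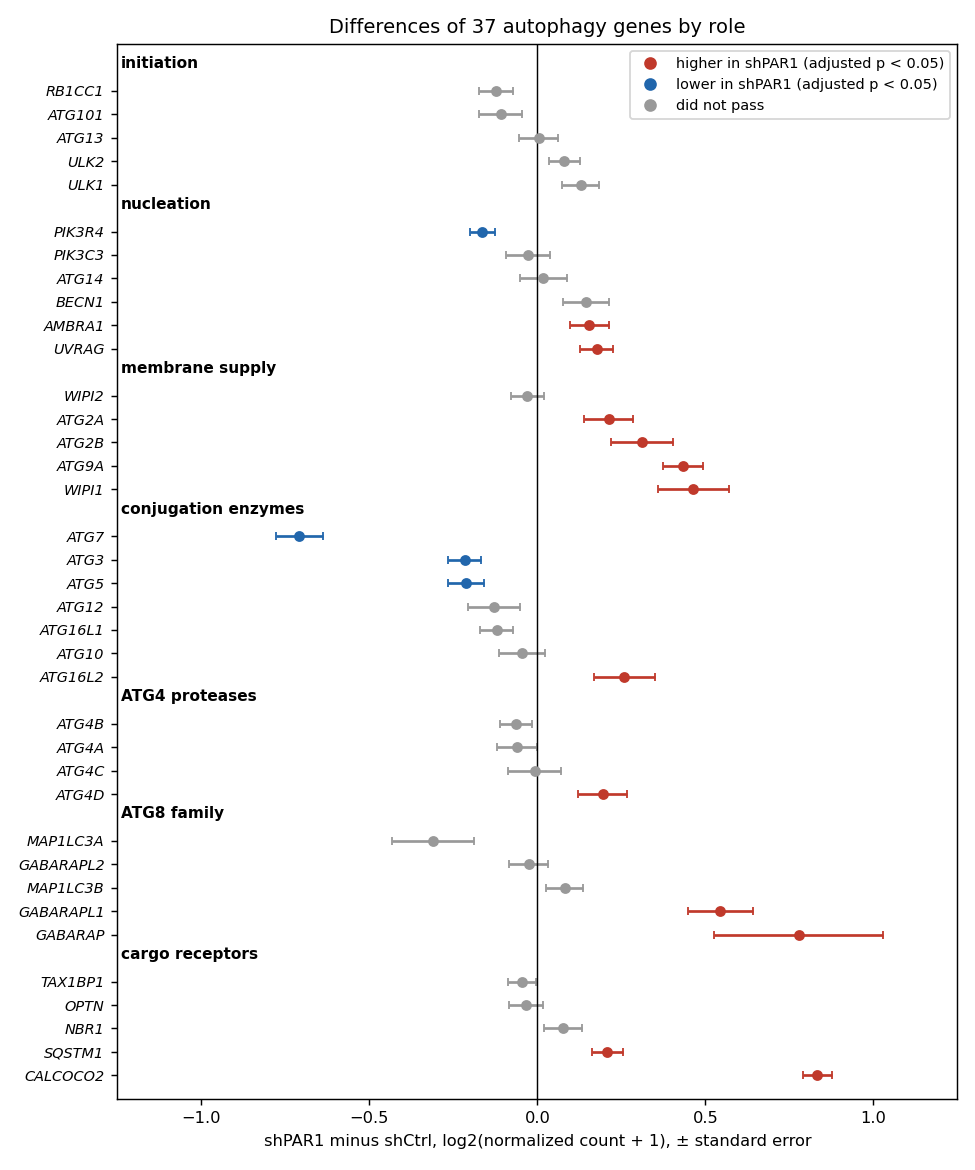
Difference of each of the 37 autophagy genes (shPAR1 minus shCtrl on the log2(normalized count + 1) scale, points) with its standard error from limma (bars), 5 libraries per group, arranged by role. No initiation gene passed the test, 4 of 5 membrane supply genes were higher, and 3 of 7 conjugation enzymes were lower. Among all genes tested 19.0% were higher and 21.9% lower.

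By role, 4 of the 5 genes for membrane supply were called, all of them higher, with a median difference of 0.31. Of the 7 conjugation enzymes 1 was higher and 3 were lower, with a median of -0.13. Nucleation had 2 higher and 1 lower of 6 (median 0.08), the ATG4 proteases 1 call of 4, higher (median -0.03), and the ATG8 family and the cargo receptors 2 calls of 5 each, all higher (both medians 0.08). Initiation had 0 calls of 5 with limma and a median of 0.00, while 2 of its members had an unadjusted p under 0.05 and voom called 1 of them higher and 1 lower. Among all genes tested 19.0% were higher and 21.9% lower. GABARAP, 1 of the 2 ATG8 family calls, passed the filter through the arm where it was higher. The calls of AMBRA1, ATG2A, ATG16L2, ATG4D and GABARAP were lost under 1 or more alternatives. With so few genes in a role these counts are a description, and no test compared the roles with each other.

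The initiation complex showed no call. ULK1, the kinase that opens the pathway, was at 9.72, 9.74, 9.71, 9.66 and 9.51 in shPAR1 libraries 1 to 5 and at 9.55, 9.57, 9.47, 9.65 and 9.46 in shCtrl libraries 6 to 10. The shPAR1 libraries 1 to 4 lay above all shCtrl libraries and library 5 lay among them, and the difference of 0.13 (standard error 0.0556, adjusted p = 0.0734) did not pass. It passed without shPAR1 library 5 or without shCtrl library 9, and with voom weights, with adjusted p down to 0.0137. RB1CC1, which encodes the scaffold FIP200, was at 11.47, 11.22, 11.35, 11.48 and 11.47 in shPAR1 and at 11.57, 11.52, 11.46, 11.51 and 11.55 in shCtrl libraries. Its groups overlapped, with shPAR1 library 2 the lowest, and the difference of -0.12 (standard error 0.0494, adjusted p = 0.0550) did not pass, although it did under 6 of 17 alternatives, among them without shPAR1 library 1, 4 or 5 (smallest adjusted p 0.0297). ULK2, a kinase related to ULK1, differed by 0.08 (adjusted p = 0.181). The adaptor gene ATG13 differed by 0.00 (adjusted p = 0.969) and ATG101, which stabilizes ATG13, by -0.11 (adjusted p = 0.191).

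In the nucleation group 2 genes rose and 1 fell. UVRAG, a BECN1 partner that directs the lipid kinase to endosomal and late steps, rose by 0.18 (standard error 0.0483, adjusted p = 0.00687). It was at 9.73, 9.84, 9.84, 9.82 and 9.84 in shPAR1 and 9.54, 9.61, 9.68, 9.73 and 9.62 in shCtrl libraries, so that the groups did not overlap but shPAR1 library 1 and shCtrl library 9 met at the second decimal. PIK3R4 encodes VPS15, the regulatory subunit that the kinase needs, and was at 10.77, 10.79, 10.80, 10.72 and 10.77 in shPAR1 and 10.89, 10.94, 10.96, 10.93 and 10.95 in shCtrl libraries. Every shPAR1 library lay below every shCtrl library, and the spread within each group was the narrowest of the members shown here by library (SD 0.0309 and 0.0259), and the difference was -0.16 (standard error 0.0378, adjusted p = 0.00193). BECN1, the scaffold of the complex, was at 8.02, 8.11, 8.27, 8.20 and 8.03 in shPAR1 and 7.95, 7.99, 7.91, 8.02 and 8.04 in shCtrl libraries. The lowest shPAR1 libraries, 1 and 5, lay among the shCtrl libraries, and the difference of 0.14 (standard error 0.0684, adjusted p = 0.105) passed with voom weights alone among the 17 alternatives (adjusted p = 0.0404). AMBRA1, which binds BECN1 and ULK1, was higher by 0.15 (standard error 0.0573, adjusted p = 0.0383), a call that was lost with TMM, with no filter on low counts, and without any single one of shPAR1 libraries 2, 3 and 4 and shCtrl libraries 6, 7, 8 and 10 (adjusted p up to 0.108). The kinase gene PIK3C3 itself differed by -0.03 (adjusted p = 0.763), and ATG14, which targets the complex to the autophagosome, by 0.02 (adjusted p = 0.859).

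Membrane supply held the most calls in a single direction. ATG9A encodes the scramblase whose vesicles seed the growing membrane. It was at 11.21, 11.42, 11.34, 11.29 and 11.14 in shPAR1 and 10.73, 10.74, 10.96, 10.97 and 10.83 in shCtrl libraries. The lowest shPAR1 value lay above the highest shCtrl value, and mean normalized counts were 34.9% higher (0.43, standard error 0.0599, adjusted p = 1.37e-05). WIPI1 encodes a reader of the lipid that the class III kinase makes. Its values were 7.18, 7.02, 7.03, 7.13 and 7.26 in shPAR1 and 6.37, 6.58, 6.86, 6.61 and 6.87 in shCtrl libraries. No values overlapped, with shCtrl libraries 8 and 10 closest to the shPAR1 range, and normalized counts were 37.4% higher (0.46, standard error 0.106, adjusted p = 0.00175). ATG2A and ATG2B, paralogs that carry lipid into the membrane, rose by 0.21 (standard error 0.0731, adjusted p = 0.0267) and by 0.31 (standard error 0.0924, adjusted p = 0.0115). The groups of both overlapped, and ATG2A lost its call without shPAR1 library 2, 3 or 4 or shCtrl library 6 or 10 (adjusted p up to 0.0770). WIPI2, the WIPI protein that recruits ATG16L1, differed by -0.03 (adjusted p = 0.659). In GENCODE 44, 38.8% of the exon bases of ATG9A (GRCh38, chr2:219219380-219229717, minus strand) are shared on the same strand with ENSG00000284820, a gene not analysed here. Of the 50-base windows in the longest ATG9A transcript alone, 44.8% fall also in transcripts of that gene, read on either strand. For WIPI1 28.1% of exon bases lie opposite ARSG and ENSG00000267009 together, and ARSG differed by 0.08 (adjusted p = 0.715).

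**Figure D2:**
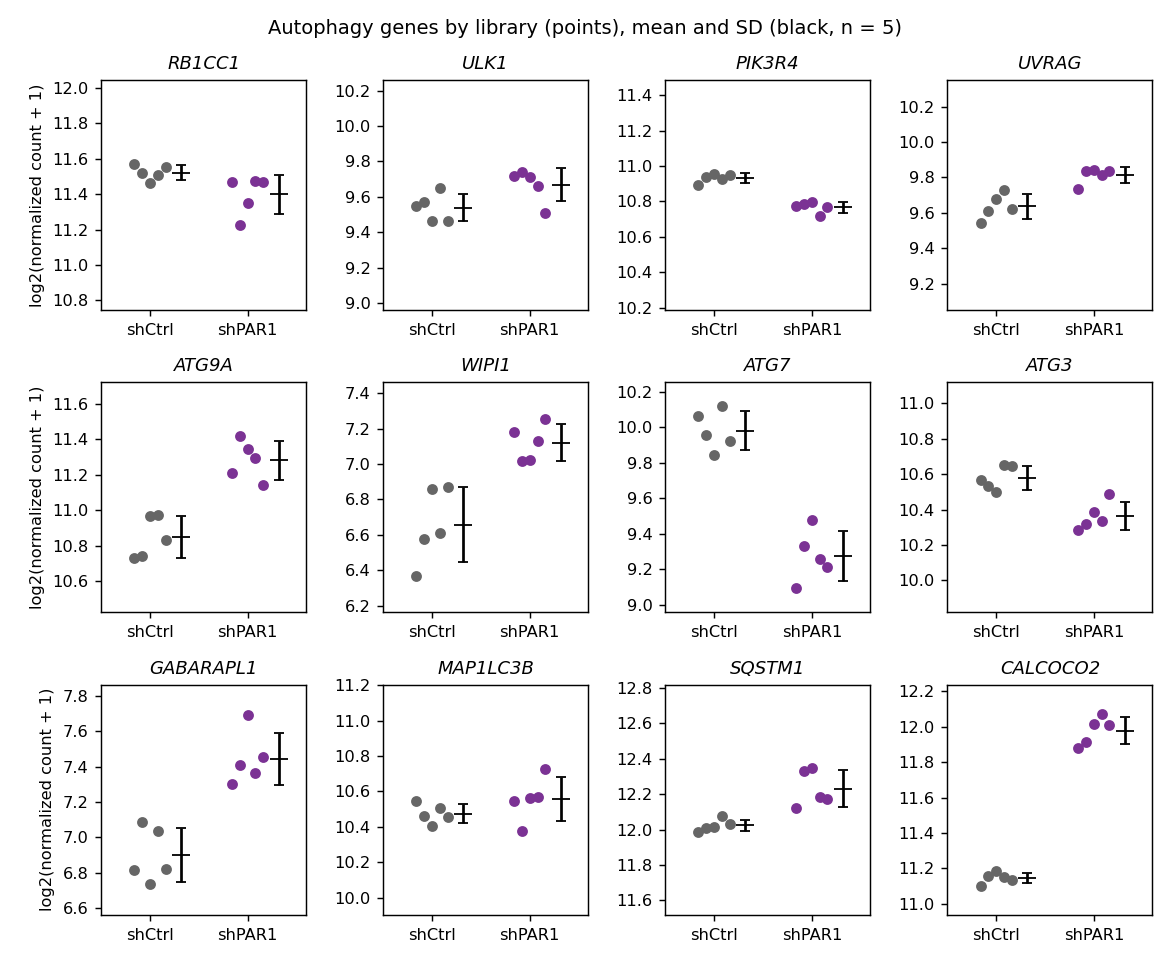
Level of 12 of the autophagy genes in every library, as log2(normalized count + 1), with grey points for shCtrl and purple points for shPAR1, and the mean and SD of 5 libraries in black. All panels span the same range of log2 units, so that the separation of CALCOCO2 and ATG7 can be set against the overlap of ULK1, RB1CC1 and MAP1LC3B.

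The conjugation enzymes held 3 of the 4 members that fell. ATG7, the E1-like enzyme that activates both ATG12 and the ATG8 proteins, was at 9.09, 9.33, 9.48, 9.26 and 9.21 in shPAR1 and 10.07, 9.95, 9.85, 10.12 and 9.92 in shCtrl libraries. The highest shPAR1 library stood well below the lowest shCtrl library, and mean normalized counts fell from 1013 to 621 (-0.71, standard error 0.0688, adjusted p = 1.87e-07). ATG3, the E2-like enzyme that passes ATG8 proteins to lipid, was at 10.29, 10.32, 10.39, 10.34 and 10.49 in shPAR1 and 10.56, 10.54, 10.50, 10.65 and 10.65 in shCtrl libraries. Here the groups came close, with shPAR1 library 5 just under shCtrl library 8, and the difference was -0.22 (standard error 0.0486, adjusted p = 0.00155). ATG5, which ATG12 is joined to, was lower (-0.21, standard error 0.0547, adjusted p = 0.00454), and its groups touched at 10.11. The other E2-like enzyme, ATG10, differed by -0.05 (adjusted p = 0.636), the ubiquitin-like ATG12 by -0.13 (adjusted p = 0.204, but 0.0312 without shPAR1 library 5) and ATG16L1, which places the ATG12-ATG5 conjugate on the membrane, by -0.12 (adjusted p = 0.0597). ATG16L1 passed with TMM, with voom and without shPAR1 library 3, with adjusted p down to 0.0228. ATG16L2, a paralog with a lesser known role in autophagy, was at 8.02, 8.26, 7.93, 8.10 and 7.77 in shPAR1 and 7.53, 7.81, 7.88, 7.81 and 7.76 in shCtrl libraries. It was the single enzyme of the group that rose, but shPAR1 library 5 lay within the shCtrl range and library 3 close above it, and the difference of 0.26 (standard error 0.0905, adjusted p = 0.0296) lost its call without shPAR1 library 2 or 4 or shCtrl library 6 or 10 (adjusted p up to 0.0875).

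TCACGTGA, the core of the CLEAR element bound by TFEB and TFE3, was searched in the promoters of the members. Promoter stretches of ATG7, the member that fell most, and of ATG3, the only member found to hold TCACGTGA, are shown. That of ATG5, which fell about as much as ATG3, is not. As ATG3 stands out by its motif, its fall and its match side by side are no evidence of a link. RefSeq windows on GRCh38.p14 were at hand for 33 of the 37 members, out of 35116 windows. TCACGTGA was in 0.98% of all windows and in 1 member, ATG3. The shorter E-box CACGTG, which TCACGTGA contains and which other factors also bind, was in 7.26% of all windows and in 2 members, ATG3 and ATG14. A member was counted when any of its windows held the motif, whereas the percentages count single windows. Both motifs are their own reverse complement, so that a search of 1 strand covers both. The windows searched ran from 250 bases before to 50 bases after the RefSeq start, and the stretches printed here are parts of them. For ATG3 the stretch is chr3:112561951-112562212 on the minus strand. It was cut 12 bases after the RefSeq start of the gene, where its TCACGTGA match ends. For ATG7 it is chr3:11272147-11272396 on the plus strand, which holds only the bases before the RefSeq start. The windows were set from RefSeq starts, and both printed stretches run past the start that GENCODE 44 gives into the annotated gene, where both marked matches of ATG3 lie. Capitals mark motif matches, and the whole ATG7 window holds neither motif.
ATG3: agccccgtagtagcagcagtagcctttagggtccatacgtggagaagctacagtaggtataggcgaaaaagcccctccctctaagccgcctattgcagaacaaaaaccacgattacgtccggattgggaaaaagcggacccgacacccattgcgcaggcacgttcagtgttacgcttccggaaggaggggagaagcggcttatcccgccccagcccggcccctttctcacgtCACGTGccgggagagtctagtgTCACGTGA
ATG7: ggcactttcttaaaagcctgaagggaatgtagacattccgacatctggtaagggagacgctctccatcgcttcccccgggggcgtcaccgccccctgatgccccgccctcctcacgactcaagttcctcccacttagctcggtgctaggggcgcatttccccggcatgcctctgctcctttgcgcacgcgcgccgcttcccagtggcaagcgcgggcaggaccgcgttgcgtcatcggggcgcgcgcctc
A match is a description of letters and no measure of binding. ATG7 spans chr3:11272309-11557665 on the plus strand of GRCh38, and 18.1% of its exon bases lie opposite VGLL4, which differed by 0.12 (standard error 0.0583, adjusted p = 0.122). Of the 50-base windows in the longest ATG7 transcript alone, 29.3% fall also in transcripts of VGLL4, read on either strand. Whether the counting used strand was not stated, and without it reads of ATG7 and VGLL4 in the shared bases are indistinguishable.

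The ATG4 proteases trim ATG8 proteins before conjugation and release them from membranes afterwards. ATG4B, the main LC3 protease, was at 10.27, 10.32, 10.35, 10.40 and 10.21 in shPAR1 and 10.31, 10.35, 10.45, 10.41 and 10.35 in shCtrl libraries. The ranges overlapped, with a difference of -0.06 (standard error 0.0469, adjusted p = 0.305). ATG4D was at 8.20, 8.13, 8.07, 8.02 and 7.88 in shPAR1 and 7.93, 7.84, 7.79, 7.98 and 7.80 in shCtrl libraries. Its shPAR1 libraries 1, 2, 3 and 4 lay above all shCtrl libraries and library 5 did not, and the call (0.19, standard error 0.0737, adjusted p = 0.0433) was lost with TMM, with no filter, and without shPAR1 library 1, 2, 3 or 4 or shCtrl library 7, 8 or 10 (adjusted p up to 0.101). ATG4A and ATG4C differed by -0.06 (adjusted p = 0.439) and -0.01 (adjusted p = 0.945).

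In the ATG8 family, the ubiquitin-like proteins that coat the autophagosome, GABARAPL1 rose. It was at 7.30, 7.41, 7.69, 7.36 and 7.45 in shPAR1 and 6.81, 7.09, 6.74, 7.03 and 6.82 in shCtrl libraries. Its groups did not overlap, and normalized counts were 46.1% higher (0.54, standard error 0.0968, adjusted p = 0.000191). MAP1LC3B, which encodes LC3B, the usual marker of autophagosomes, was at 10.54, 10.38, 10.56, 10.57 and 10.73 in shPAR1 and 10.55, 10.46, 10.40, 10.51 and 10.46 in shCtrl libraries. The shPAR1 libraries lay on both sides of the shCtrl range, with library 2 below it and libraries 3, 4 and 5 above it, and the difference of 0.08 (standard error 0.0553, adjusted p = 0.264) did not pass. MAP1LC3A, which encodes LC3A, differed by -0.31 (standard error 0.122, adjusted p = 0.0501), just over the threshold, and passed under 5 of 17 alternatives, among them without shPAR1 library 2 or shCtrl library 6 (smallest adjusted p 0.0177). GABARAPL2, also called GATE-16, differed by -0.03 (adjusted p = 0.754).

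GABARAP had the largest difference of the family and the least reads of all members. It was at 3.88, 4.43, 4.49, 3.79 and 4.36 in shPAR1 and 3.33, 2.87, 3.68, 3.33 and 3.84 in shCtrl libraries, from 7 to 24 reads in a library. The ranges overlapped and the difference of 0.78 (standard error 0.252, adjusted p = 0.0193) lost its call without shPAR1 library 2 or shCtrl library 7 (adjusted p up to 0.0556). Mean normalized counts were 17.6 in shPAR1 and 9.93 in shCtrl cells, so GABARAP passed the filter through the arm where it was higher. The stricter filter, which left 36 members to test, removed GABARAP. Of the 50-base windows in the longest GABARAP transcript alone, 65.3% fall also in transcripts of other genes in GENCODE 44, read on either strand. On the same strand 35.4% of its exon bases are shared with other genes, among them ENSG00000262526, a gene not analysed here. The part of this overlap in the low counts and in the difference was not tested. For MAP1LC3B 12.8% of such windows recur in other genes, among them MAP1LC3B2 and a pseudogene, and for GABARAPL1 9.92% recur in GABARAPL1-AS1 and GABARAPL3.

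Among the cargo receptors CALCOCO2 changed most. CALCOCO2 encodes NDP52, a receptor for bacteria, mitochondria and other ubiquitin-marked cargo. It was at 11.88, 11.92, 12.01, 12.07 and 12.01 in shPAR1 and 11.10, 11.15, 11.18, 11.15 and 11.13 in shCtrl libraries. The gap between the groups was wider than the range within either, and mean normalized counts rose from 2264 to 4039, or by 78.4% (0.83, standard error 0.0423, adjusted p = 3.29e-11). SQSTM1, which encodes p62, the receptor that is itself degraded by autophagy, was at 12.12, 12.33, 12.35, 12.18 and 12.17 in shPAR1 and 11.99, 12.01, 12.01, 12.07 and 12.03 in shCtrl libraries. The groups did not overlap, although the step was 15.7% of normalized counts (0.21, standard error 0.0465, adjusted p = 0.00148). The related receptor NBR1 differed by 0.08 (adjusted p = 0.305), OPTN, a receptor for mitochondria, by -0.03 (adjusted p = 0.622) and TAX1BP1, a paralog of CALCOCO2, by -0.05 (adjusted p = 0.412). CALCOCO2 (GRCh38, chr17:48831018-48866522, plus strand) shares no exon bases with another gene in GENCODE 44. For SQSTM1 22.4% of all exon bases lie opposite other genes, among them MRNIP, which was also higher (0.34, standard error 0.0946, adjusted p = 0.00752). Of the 50-base windows in the longest SQSTM1 transcript alone, 53.4% fall also in transcripts of MRNIP, read on either strand. The part of the CALCOCO2 promoter window before the RefSeq start, chr17:48830785-48831034 on the plus strand of GRCh38.p14, is shown because CALCOCO2 is the member with the largest difference. The whole window holds neither of the motifs above. The end of the printed part lies inside the gene as GENCODE 44 annotates it.
CALCOCO2: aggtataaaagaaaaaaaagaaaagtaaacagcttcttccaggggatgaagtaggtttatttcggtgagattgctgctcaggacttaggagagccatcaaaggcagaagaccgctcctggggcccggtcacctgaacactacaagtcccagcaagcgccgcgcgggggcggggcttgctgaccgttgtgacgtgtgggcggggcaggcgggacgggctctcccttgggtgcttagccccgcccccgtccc

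Levels were compared between genes as normalized counts per kilobase of annotated exon. In shCtrl cells SQSTM1 was the highest at 552 ± 12.4, followed by ATG9A at 391 ± 31.9, RB1CC1 at 386 ± 10.9, PIK3R4 at 363 ± 6.49 and TAX1BP1 at 347 ± 7.67 (mean ± SD, n = 5). ATG9A and RB1CC1 did not differ beyond their spread. The order rests on the length used: with the longest transcript of each gene SQSTM1 was still the highest, but TAX1BP1 (792), CALCOCO2 (623), ATG3 (509) and ATG9A (459) came next, ahead of RB1CC1 (443) and PIK3R4 (389). With either length the 3 lowest were PIK3C3 (16.4 ± 0.930), ATG2B (12.7 ± 1.61) and GABARAP (5.09 ± 1.40). The part of the overlap of GABARAP with other genes, given above, in its low level was not tested. Initiation was uneven, with RB1CC1 well above ULK1 (97.7 ± 5.31) and ULK2 (82.0 ± 2.53). In shPAR1 cells CALCOCO2 went from 273 ± 5.67 to 486 ± 26.1 per kilobase of exon union, and ATG7 from 115 ± 8.78 to 70.3 ± 7.05. Lengths of annotated exons need not be those of the transcripts these cells use, and the median level over members was 117 with exon unions and 165 with the longest transcript of each gene.

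**Figure D3:**
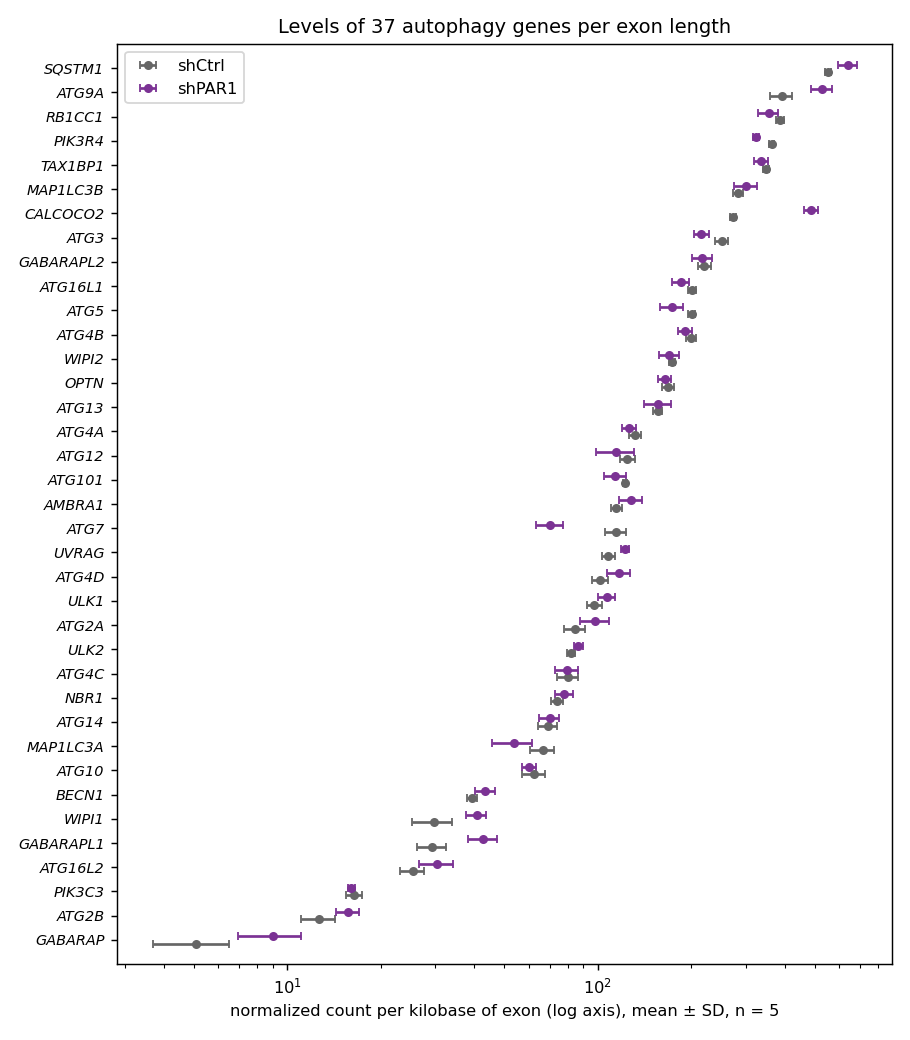
Mean normalized count per kilobase of annotated exon of the 37 autophagy genes (log axis), in shCtrl (grey) and shPAR1 (purple) cells, with SD over 5 libraries. Genes are in the order of the shCtrl level, from SQSTM1 at 552 to GABARAP at 5.09, and CALCOCO2, the seventh in that order by exon union at 273, is at 486 in shPAR1 cells.

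Within families the shares per length shifted with these differences. Of the summed level of the 5 receptors (mean ± SD, n = 5), CALCOCO2 held 28.5% ± 1.29 of it in shPAR1 against 19.3% ± 0.478 in shCtrl cells. SQSTM1 held 37.5% ± 1.79 of it in shPAR1 against 39.0% ± 0.614 in shCtrl cells. TAX1BP1 held 19.8% ± 0.959 of it in shPAR1 against 24.5% ± 0.512 in shCtrl cells, so the share of TAX1BP1 was smaller in shPAR1 cells while its own level did not pass the test. Of the summed level of the 5 ATG8 genes, MAP1LC3B held 48.1% ± 1.93 of it in shPAR1 against 46.8% ± 1.29 in shCtrl cells, and GABARAPL2 held 34.9% ± 0.344 of it in shPAR1 against 36.5% ± 1.30 in shCtrl cells. GABARAPL1 held 6.89% ± 0.658 of it in shPAR1 against 4.86% ± 0.539 in shCtrl cells, a small part of the family in both groups. Of the summed level of the 4 proteases, ATG4B held 37.2% ± 1.48 of it in shPAR1 against 38.9% ± 1.46 in shCtrl cells.

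A ratio of a pair of genes within a library does not depend on the size factor of that library, apart from the pseudocount. For 12 pairs of paralogs or partner genes the log2 ratio was compared between groups by an exact permutation test (two-sided, smallest possible p 0.00794), with adjustment over the 12 pairs. The ratio of GABARAPL1 to GABARAPL2 was -1.98, -1.83, -1.72, -1.96 and -2.05 in shPAR1 and -2.62, -2.25, -2.61, -2.26 and -2.64 in shCtrl libraries. All shPAR1 ratios exceeded all shCtrl ratios, by 0.57 on the log2 scale on average (standard error 0.107, exact p = 0.00794, adjusted p = 0.0476). The ratio of WIPI1 to WIPI2 was -3.29, -3.46, -3.69, -3.47 and -3.36 in shPAR1 and -4.26, -3.98, -3.75, -3.99 and -3.76 in shCtrl libraries. These again did not overlap, and the difference was 0.49 (standard error 0.116, exact p = 0.00794, adjusted p = 0.0476). The ratio of ATG16L1 to ATG16L2 differed by -0.38 and did not pass (standard error 0.116, exact p = 0.0159, adjusted p = 0.0635). MAP1LC3A to MAP1LC3B (-0.39, exact p = 0.0317) and MAP1LC3B to GABARAP (-0.70, exact p = 0.0397) both had an adjusted p of 0.0952. SQSTM1 to NBR1 differed by 0.13 (exact p = 0.0556, adjusted p = 0.111). The other 6 pairs had exact p from 0.111 to 0.992 (adjusted p from 0.190 to 0.992), and ATG4A to ATG4B had the smallest difference, 0.00 (standard error 0.0663).

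**Figure D4:**
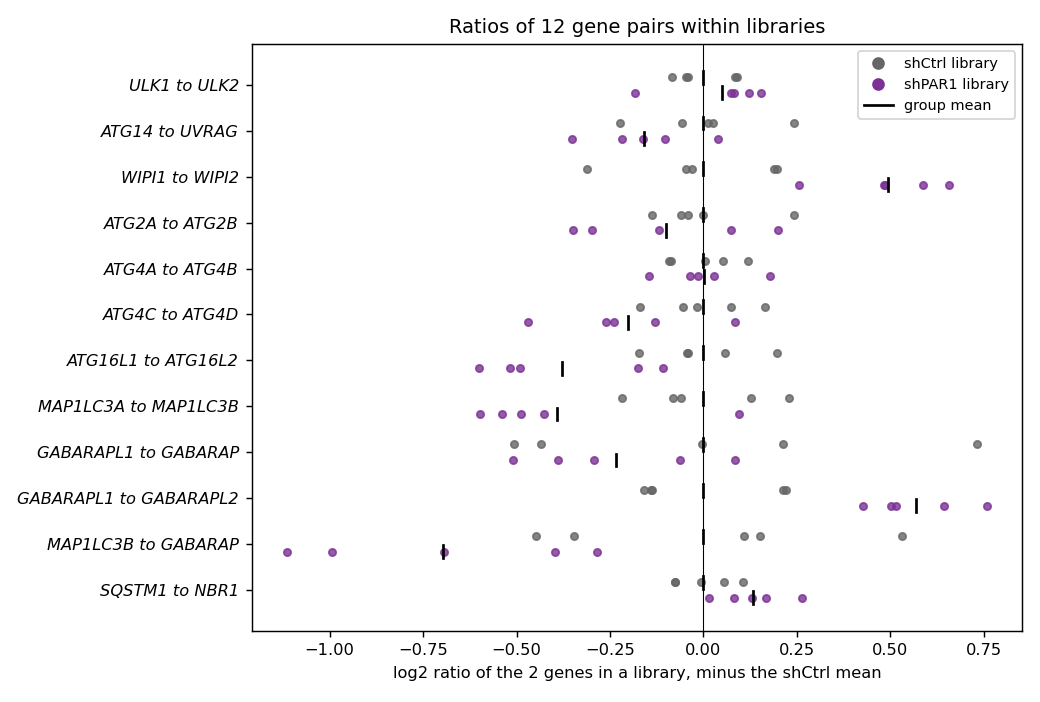
Log2 ratio of 12 gene pairs in each of 5 shCtrl (grey) and 5 shPAR1 (purple) libraries, with the shCtrl mean of the pair taken off, and black marks for the group means. For WIPI1 to WIPI2 and GABARAPL1 to GABARAPL2 every purple point lies to the right of every grey point.

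Other autophagy genes were counted from lists written from general knowledge, 99 genes of which 96 were tested. Of these 28 were higher and 20 lower (29.2% and 20.8%, beside 19.0% and 21.9% of all genes tested). These lists too were chosen with earlier results of these data known, so the shares are a description. Among the transcription factors that act on autophagy genes, 5 of 10 were higher and 1 lower. MITF, of the same family as TFEB, was higher by 2.11 (standard error 0.164, adjusted p = 1.12e-08), from a low level, 4.25 ± 0.30 (SD, n = 5) in shCtrl cells. FOXO1 (0.97, standard error 0.199, adjusted p = 0.000699), FOXO4 (0.59, standard error 0.161, adjusted p = 0.00673), the stress factor DDIT3 (0.30, standard error 0.0841, adjusted p = 0.00748) and TFE3 (0.19, standard error 0.0488, adjusted p = 0.00482) were also higher, and E2F1 was lower (-0.39, standard error 0.0479, adjusted p = 3.34e-06). FOXO1 had 11 to 35 reads in a library, with mean normalized counts of 28.95 in shPAR1 and 14.64 in shCtrl cells. Its shCtrl libraries alone did not meet the filter, so it passed through shPAR1, the arm where it was higher. It is counted among the 5 higher. Of the exon bases of DDIT3, 31.6% lie opposite other genes. TFEB, the factor best known for this program, differed by 0.05 (adjusted p = 0.766), FOXO3 by 0.08 (adjusted p = 0.342), ATF4 by 0.03 (adjusted p = 0.615) and ZKSCAN3, a repressor of autophagy genes, by -0.15 (adjusted p = 0.0996). A list of 8 genes that TFEB is known to induce, which shares WIPI1, UVRAG, SQSTM1 and MAP1LC3B with the members, had 5 higher and 1 lower, with a median difference of 0.19. VPS18 rose by 0.51 (standard error 0.0550, adjusted p = 7.26e-07) and BCL2 was lower (-2.60, standard error 0.253, adjusted p = 1.87e-07). BCL2 had 4 to 67 reads in a library, with mean normalized counts of 8.29 in shPAR1 and 51.9 in shCtrl cells. It passed the filter through the shCtrl libraries, the arm where it was higher.

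Among 13 other core factors 1 was higher and 6 were lower, with a median of -0.11. The shares higher and lower were 7.69% and 46.2% here, and 31.2% and 15.6% for nutrient signalling. They were 29.4% and 11.8% for fusion genes and 28% and 24% for organelle-selective receptors, beside 19.0% and 21.9% of all genes tested. RUBCN, which encodes Rubicon, a UVRAG partner that restrains maturation, was lower (-0.64, standard error 0.0563, adjusted p = 5.62e-08), and WDR45, a relative of the WIPI genes, was higher (0.28, standard error 0.0571, adjusted p = 0.000742). Of the exon bases of RUBCN, 54.9% lie opposite other genes, among them ENSG00000287286. Whether the counting used strand was not stated, and the part of these genes in the RUBCN difference was not tested. BCL2, whose protein binds and holds back BECN1, belongs to this list too. Among 32 genes of nutrient signalling 10 were higher and 5 lower (median 0.09), with SESN2, a leucine and stress sensor, higher (0.59, standard error 0.0825, adjusted p = 1.48e-05) and the kinase subunit PRKAG2 (-0.62, standard error 0.0649, adjusted p = 4.64e-07) and the GTPase RRAGD (-0.58, standard error 0.0558, adjusted p = 1.71e-07) lower. Fusion genes had 5 higher and 2 lower of 17 (median 0.02), and beside VPS18 the tethering subunits VPS11 (0.36, standard error 0.0495, adjusted p = 1.14e-05) and VPS16 (0.34, standard error 0.0684, adjusted p = 0.000597) were higher. Organelle-selective receptors had 7 higher and 6 lower of 25 (median 0.05). BNIP3L, a receptor for mitochondria, was lower (-0.75, standard error 0.0846, adjusted p = 1.28e-06), and TEX264 (0.46, standard error 0.0531, adjusted p = 1.62e-06) and CCPG1 (0.40, standard error 0.133, adjusted p = 0.0236), receptors for the endoplasmic reticulum, were higher. Of the exon bases of CCPG1, 38.9% are shared on the same strand with other genes, among them DNAAF4-CCPG1. Promoter windows were at hand for 83 of the 99 other autophagy genes, and TCACGTGA was found for 5 genes and CACGTG for 14. A gene was counted when any of its windows held the motif. The 0.98% and 7.26% given above are shares of single windows, so the units differ. These counts were not tested.

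**Figure D5:**
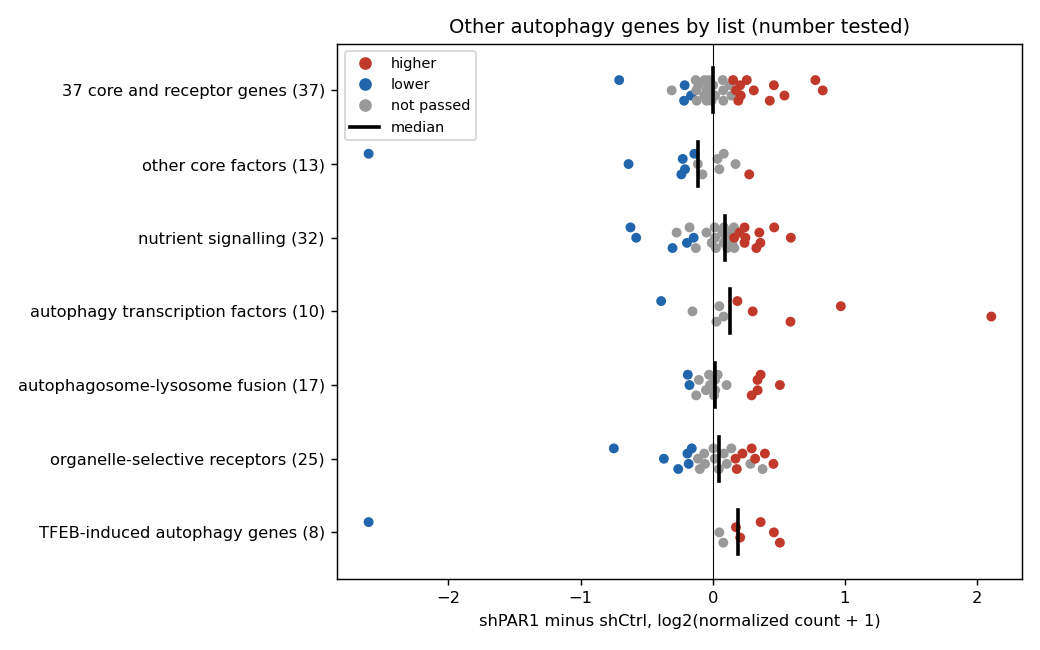
Differences (shPAR1 minus shCtrl, log2(normalized count + 1)) of the 37 core and receptor genes and of 6 lists of other autophagy genes, with red for genes higher in shPAR1, blue for lower, grey for those that did not pass, and black bars for medians. The number tested is in brackets, genes can stand in several lists, and the medians lie between -0.11 and 0.19.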

How the data were processed

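RNA of 10 PANC-1 samples, 5 shPAR1 and 5 shCtrl, was depleted of ribosomal RNA and sequenced in single reads (50 bases). According to the submitters' processing notes and the study's methods, FastQC 0.11.5 was used for quality, Trimmomatic 0.36 for trimming, HISAT2 2.1.0 for alignment to GRCh38, HTSeq for counting and DESeq2 for normalization. Annotation release and strand setting were not given in the sources at hand. The deposited values are log2 values, which the authors made from the count divided by a size factor, plus 1. Undoing this returned counts within 0.01 of whole numbers for 100.0% of values, with factors that differed by at most 0.0275% from those of the median-of-ratios method. Groups came from the sample labels, which the file headers repeat in 10 of 10 libraries. No 2 libraries were identical.

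The log2 values were fitted with limma 3.58.1 in R 4.3.3 (trended prior variance, shPAR1 against shCtrl, no covariates) for the 17518 genes that reached a normalized count of 10 in 5 or more libraries, and p-values were adjusted by Benjamini-Hochberg over these genes. The step was also run on simulated counts in which few genes changed, by larger steps than most differences given here. That run therefore does not bear on the small differences of the members. Counts per library (15335264 to 25369056) limit the precision for genes with few reads. Pair ratios were compared by exact permutation tests over libraries. Gene lengths, coordinates and overlaps came from GENCODE 44, which matched 27361 of 27884 identifiers, and promoter windows from RefSeq. Members with an absolute difference of at least 0.4 that passed, the 2 most changed members of each role, SQSTM1, MAP1LC3B, BECN1 and ULK1 are given by library, and the 3 most changed genes past the threshold are named from each other list. The values of ATG3 by library were added after they were seen. The members, roles and lists were chosen with earlier results of these data known. Python 3.11.15 was used for tables and figures, with numpy 2.4.6, pandas 2.3.3, scipy 1.17.1 and matplotlib 3.10.9.

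Alternatives were TMM factors, size factors without mitochondrially encoded genes, scaling to total counts, voom with sample quality weights on the recovered counts, no filter, a stricter filter (1 CPM or more throughout either group), a pseudocount of 5, each library left out in turn, and the longest transcript as length.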

Additional observations from a re-analysis of the deposited data

Results flagged for a closer look

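In 98 groups of 5 libraries (the 37 members and 12 pair ratios in both arms) a library was looked for whose gap to its nearest neighbour took more than 0.71 of the range of the group, which chance gives in about 1 in 20 groups. It was found in 5 groups, all of them shPAR1. ATG101, a subunit of the ULK1 complex, was at 8.29 in library 1 against 8.52 in the nearest library. UVRAG was at 9.73 in library 1, against 9.82, which is also the shPAR1 value closest to the shCtrl range. ATG10 was at 8.22 in library 2, against 8.38. The log2 ratio of ULK1 to ULK2 was -0.30 in library 5, against -0.05, and that of MAP1LC3A to MAP1LC3B was -4.11 in library 2, against -4.63. Without shPAR1 library 1 the UVRAG call was kept, and neither ATG101 nor ATG10 passed with or without these libraries. MAP1LC3A passed without library 2 and ULK1 without library 5.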

How the results depend on the processing

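Of the 16 members called, 11 kept the call under all 17 alternatives and 5 (AMBRA1, ATG2A, ATG16L2, ATG4D and GABARAP) lost it under 1 or more. GABARAP was not tested under the stricter filter and so had 16 alternatives. Of the 21 others, 6 gained a call under 1 or more (ULK1, RB1CC1, BECN1, ATG12, ATG16L1 and MAP1LC3A), and 0 called members changed direction. Leaving out each library in turn gave 7 to 13 members higher, with 7 without shPAR1 library 2, and 4 to 6 lower. The number lower rose from 4 to 7 with TMM factors and to 7 with voom, while the median of all genes tested lay between -0.02 and 0.02 under every alternative. The F2R difference ranged from -1.58 to -1.54. With a library left out 0 of the 12 pair ratios passed, where 4 against 5 libraries give a smallest exact p of 0.0159 and at least 4 pairs would have to reach it to pass. With a pseudocount of 5 the number was 2. The median level per kilobase was 117 with exon unions and 165 with the longest transcript, by construction of the shorter length. No paired analysis was possible because the shPAR1 libraries (1 to 5) and the shCtrl libraries (6 to 10) share no replicate number. Read counts limit GABARAP most, with 7 to 24 reads in a library.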
